A study of Cricetulus griseus with 10 samples.

Results

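Adamtsl2, the fibrillins Fbn1 and Fbn2, the latent TGF-beta binding proteins Ltbp1 to Ltbp4 and the ligands Tgfb1 and Tgfb2 encode a connected set of extracellular proteins. All 9 genes had 1 row each in the deposited table of 25156 features, 4 under their symbol (Adamtsl2, Fbn1, Ltbp2 and Tgfb2) and 5 under their Chinese hamster NCBI Gene number (Fbn2, Ltbp1, Ltbp3, Ltbp4 and Tgfb1). All 9 had a mean of at least 10 normalised reads, as did 13521 features in all. RNA sequencing had been done on wild-type CHO-K1, an established line from Chinese hamster ovary, during adaptation to suspension growth in the serum-free medium SFM4CHO. The 5 groups were passages 0, 2, 4, 6 and 10 of the adaptation, written P0, P2, P4, P6 and P10, with 2 libraries each, 10 in all. The labels give no further treatment, do not state how the P0 cells were grown, and do not say whether duplicates were separate cultures, and the p-values therefore describe no more than the spread among these libraries, which may be technical.

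TGF-beta is secreted in a latent form, folded together with its own propeptide and tied by disulfide bonds to an LTBP. The LTBPs attach this large latent complex to fibronectin and to microfibrils, which are built from fibrillins, and the ligand is set free by integrins, proteases or thrombospondin. ADAMTSL2 is a secreted glycoprotein of the ADAMTS-like family, which lacks the protease domain of the ADAMTS enzymes. The human protein binds fibrillin-1 and LTBP1, and mutations of its gene cause geleophysic dysplasia, a connective tissue disorder in which fibrillin-1 mutations are also found.

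The set was chosen by earlier results of these data, in which Adamtsl2 was named for its difference between P10 and P0. The values of Adamtsl2, and those of every member at P10 against P0, are therefore given as a description with no test. The other 8 genes were tested at P2, P4 and P6 against P0 and in the steps between neighbouring passages. Values are normalised reads, that is read counts divided by 1 size factor per library, and they are not scaled for transcript length, so levels are compared within a gene and not between genes.

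Some libraries stood apart. Duplicates correlated across genes at 0.988, 0.989 and 0.992 (Pearson's r of log2 values) at P0, P2 and P4, but at 0.956 at P6 and 0.930 at P10. The feature Dym took between 8.53 and 13.5% of all reads up to P4, 4.32% in P6 replicate 1, 1.15% in P6 replicate 2, 1.41% in P10 replicate 1 and 10.7% in P10 replicate 2. Reads in the table ranged from 8394219 to 16599495 per library. Of 5 measured epithelial markers only Cdh1 reached a mean of 10, and Krt18 had no read in 9 libraries, while all 5 measured mesenchymal markers reached it, with Vim between 12373 and 23048 normalised reads. The leukocyte markers, with 4 of 6 at a mean of at least 10, summed to 47.9 and 57.5 normalised reads in the P0 duplicates, 98.9 and 104 in P2, 174 and 199 in P4, 142 and 203 in P6 and 103 and 153 in P10. Of these, Ptprc, the general leukocyte marker CD45, had 9.58 to 29.2 normalised reads, Cd68 had 32.2 to 111, and Itgax had 0 and 1.44 in the P0 duplicates and 18.6 to 78.1 in the later libraries. Tyrobp and Cd14 had no read in 8 and 9 of the 10 libraries.

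**Figure D1:**
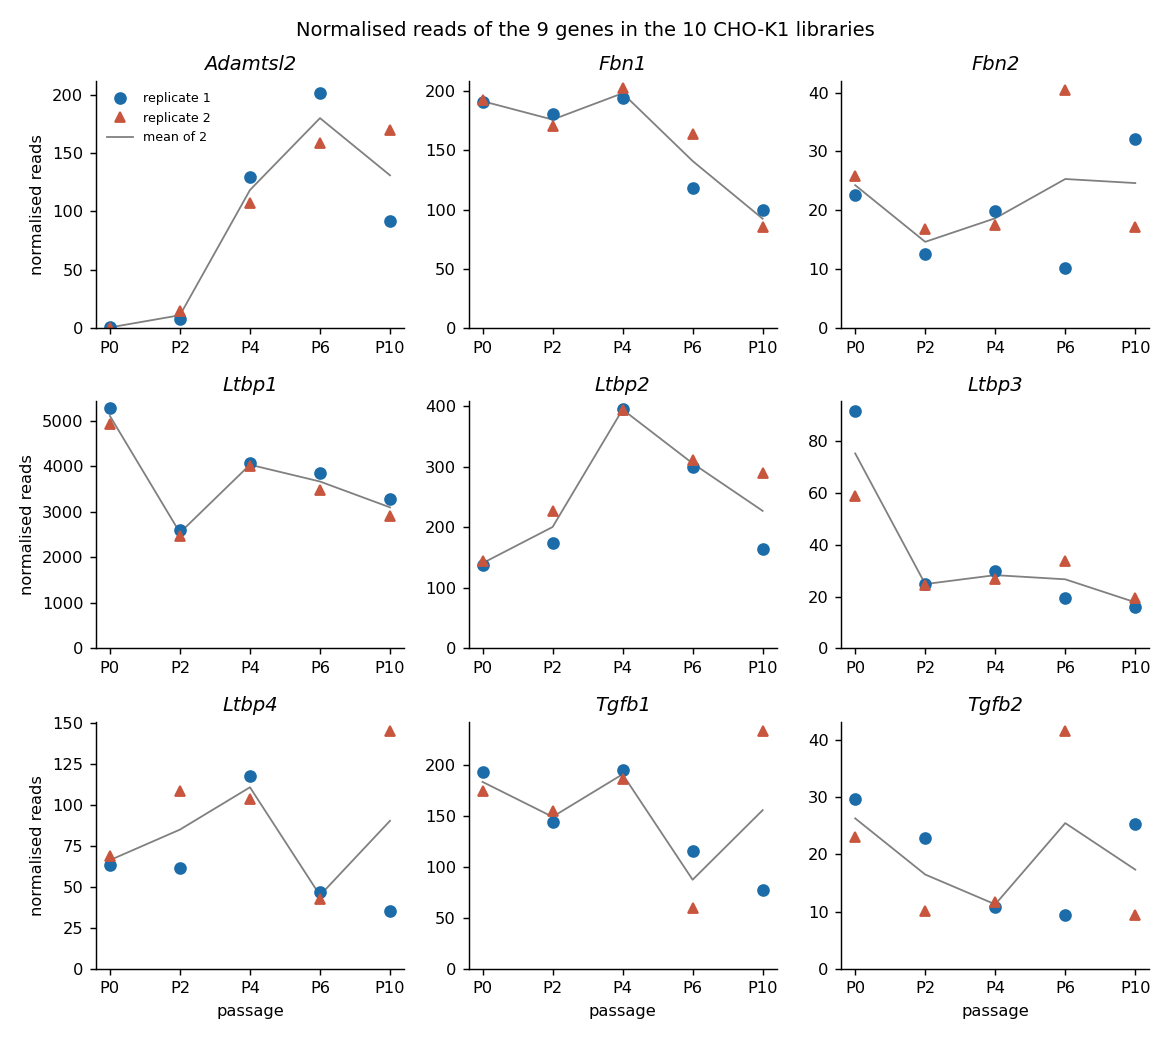
Normalised reads (y axis, starting at 0, own scale per gene) of the 9 genes at each passage (x axis, evenly spaced), with 1 point per library and a line through the mean of the 2 libraries. Adamtsl2 is near 0 at P0 and at 91.98 or more from P4 on, Ltbp1 dips at P2, Ltbp2 peaks at P4, and the duplicates of Ltbp4, Tgfb1, Tgfb2 and Fbn2 lie far apart at P10 or P6.

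Adamtsl2 was almost silent at the start and well above that level from P4 on. It had 0.871 and 0 normalised reads in the P0 duplicates, 7.29 and 14.5 in P2, 130 and 107 in P4, 202 and 158 in P6 and 92.0 and 170 in P10. The first 2 values are 1 read and 0 reads, and a count of 0 in P0 replicate 2 allows up to 4.31 normalised reads. The groups P0, P2 and P4 did not overlap with each other, and the values of P10 overlapped with those of P4 and of P6. In these bulk samples more cells with the transcript and more transcript per cell cannot be told apart.

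Because P0 held a single read, the ratios to P0 carry wide counting intervals. The pooled ratio was 19.9 at P2 (20 reads against 1 read, exact 95% binomial interval 3.18 to 824). It was 339 at P6 (399 reads against 1 read, interval 60.6 to 13436). At P10 it was 244 (interval 43.6 to 9684), and at P4, from the replicate 2 library alone, 198 (interval 34.6 to 7893). These intervals cover counting error only and not the spread between duplicates. They are no test, because Adamtsl2 was chosen for its difference between P10 and P0. Between P4 and P2 the ratio of means was 10.9, with 118 ± 15.8 at P4, against 10.9 ± 5.12 at P2 (SD, n = 2 each). The leukocyte marker sum given above was also higher in every later library than in both P0 libraries. So was the sum of the mesenchymal markers, at most 16953 normalised reads at P0 and at least 19504 in the later libraries. That of the epithelial markers was not. The mesenchymal markers did not all rise. In P4 replicate 1 Vim had 14093 normalised reads, against 14367 in P0 replicate 1, and Zeb1 had 1313, against 1477. In the same libraries S100a4 had 3983, against 696, and Pdgfrb 727, against 402. The part of these sums in the Adamtsl2 values was not tested.

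The genes with the profile most like Adamtsl2 were sought among 9268 named genes with a mean of at least 50 normalised reads, by Pearson's r of log2(value + 1) over the 10 libraries. Nppa, which encodes the precursor of atrial natriuretic peptide, came first (r = 0.991). Nppa had 8.71 and 1.44 normalised reads in the P0 duplicates, 131 and 123 in P2, 1950 and 1959 in P4, 6264 and 2837 in P6 and 2795 and 5958 in P10. In P6 replicate 1 and P10 replicate 2 both Nppa and Adamtsl2 were higher than in the duplicate library of the same passage.

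After it came Heatr7b2, a HEAT-repeat gene (r = 0.983), Myo10, an unconventional myosin of filopodia (r = 0.971), Sox8, a transcription factor of the SRY-related family (r = 0.966), and Cgnl1, a cell junction protein (r = 0.965). Myo10 covered a far narrower range than Adamtsl2, with 1679 and 1529 normalised reads at P6, against 692 and 719 at P0. In all, 88 of the 9268 genes had an r above 0.9, and the 10 libraries share 5 passages, so these are descriptions of profiles over few independent points. Among the other 8 genes of the set, Ltbp2 had the highest r with Adamtsl2 (0.81) and Ltbp3 the lowest (-0.76), both over the same 10 libraries.

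**Figure D2:**
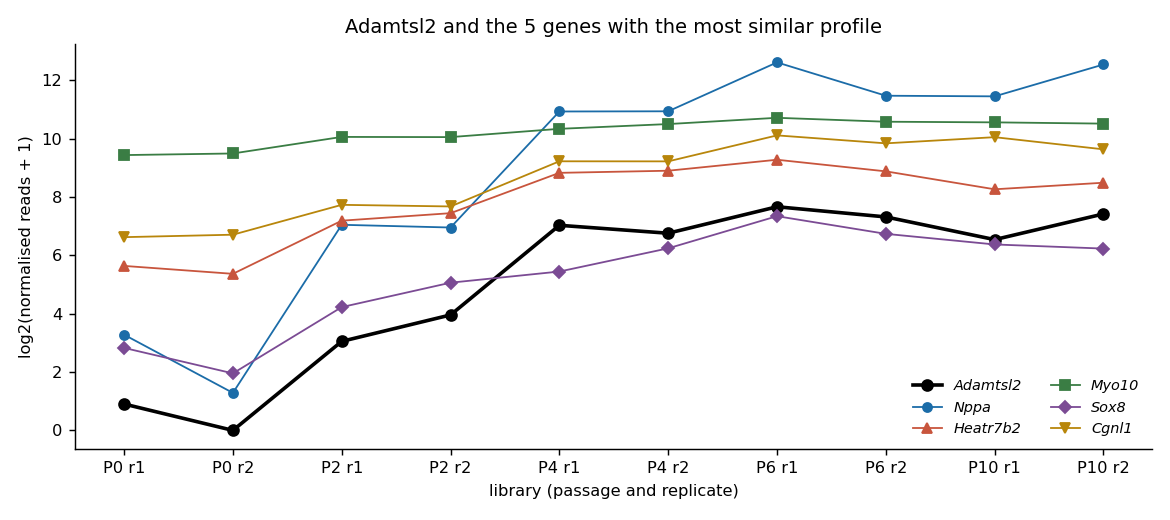
Log2 of normalised reads plus 1 (y axis) in each of the 10 libraries (x axis, passage and replicate) for Adamtsl2 (black) and the 5 genes with the highest correlation to it. Nppa and Adamtsl2 both start near the bottom at P0 and climb most between P0 and P4, while Myo10 starts at 692 and 719 normalised reads and moves little.

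Of the fibrillins, Fbn1 stayed between 171 and 203 normalised reads through P4 and was lowest at P10. Fbn1, the main component of microfibrils in adult connective tissue, had 191 and 193 normalised reads in the P0 duplicates, 181 and 171 in P2, 194 and 203 in P4, 118 and 164 in P6 and 99.6 and 85.1 in P10. Both P10 values and both P6 values lay below every value of P0, P2 and P4. The mean of 92.3 ± 10.3 at P10, against 192 ± 1.29 at P0 (SD, n = 2 each), is 48.2% of the P0 level, a log2 change of -1.05 (SE 0.22).

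In the tested comparisons Fbn1 did not pass. Its log2 changes from P0 were -0.12 (SE 0.22, limma adjusted p = 0.852) at P2, 0.05 (SE 0.22, limma adjusted p = 0.924) at P4 and -0.46 (SE 0.22, limma adjusted p = 0.160) at P6. In the steps to P6 from P4 and to P10 from P6 the log2 changes were -0.51 (SE 0.22, limma adjusted p = 0.194) and -0.59 (SE 0.22, limma adjusted p = 0.513). Without P6 replicate 2 and P10 replicate 1, which leaves 1 library each at P6 and P10, the step to P6 from P4 was -0.74.

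Fbn2, a fibrillin best known from development, was low and showed no common course. It had 22.6 and 25.9 normalised reads in the P0 duplicates, 12.5 and 16.8 in P2, 19.8 and 17.5 in P4, 10.2 and 40.4 in P6 and 32.1 and 17.2 in P10. The lowest and the highest of these 10 values both came from P6. No comparison of Fbn2 passed, with log2 changes from P0 of -0.70 (SE 0.59) at P2, -0.36 (SE 0.59) at P4 and -0.23 (SE 0.59) at P6, and limma adjusted p of 0.614, 0.773 and 0.793. Its values rest on 12 to 38 reads per library.

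**Figure D3:**
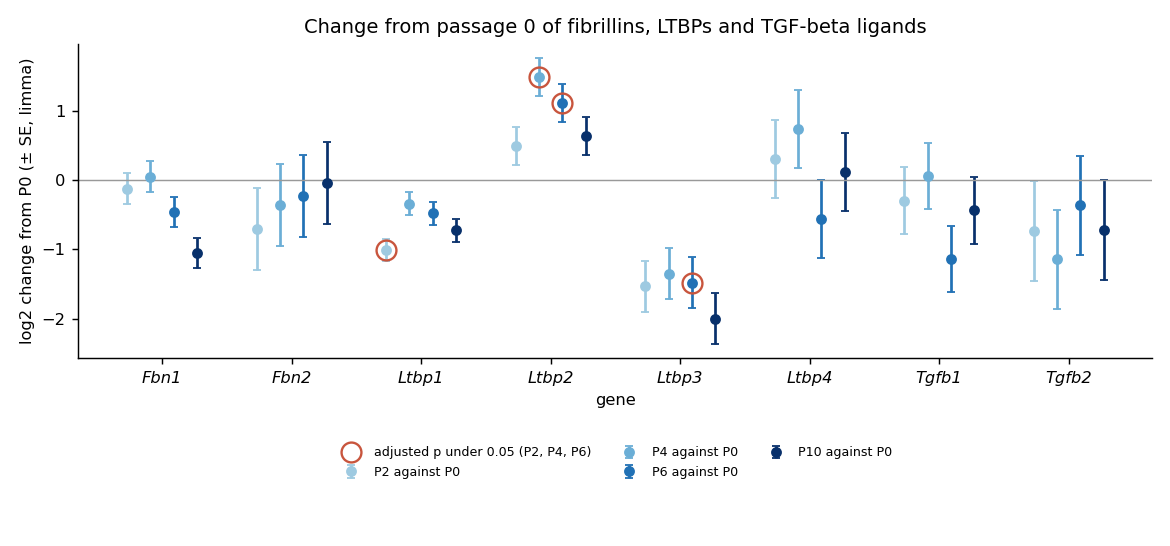
Log2 change from P0 with its standard error (y axis, limma on log2 of value + 1) for 8 genes (x axis) at P2, P4, P6 and P10, with red rings on the changes that passed at P2, P4 or P6; changes at P10 are shown without a test. Rings stand on Ltbp1 at P2 (-1.01), Ltbp2 at P4 (1.48) and P6 (1.11) and Ltbp3 at P6 (-1.48).

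The changes that passed at P2, P4 or P6 against P0 were all of LTBPs, and they went in different directions. Ltbp1, which ties latent TGF-beta to the matrix and is bound by ADAMTSL2 in human cells, fell at P2. It had 5280 and 4927 normalised reads in the P0 duplicates, 2606 and 2472 in P2, 4061 and 4004 in P4, 3846 and 3480 in P6 and 3279 and 2912 in P10. The duplicates were close at every passage, the groups did not overlap in any pair of neighbours in the order P2, P10, P6, P4, P0, and P2 was the lowest.

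At P2 the mean of Ltbp1 was 2539 ± 94.5, against 5104 ± 250 at P0 (SD, n = 2 each), or 49.7% of it (log2 change -1.01, SE 0.16, limma adjusted p = 0.0134). At P2 Ltbp1 alone of the 8 genes passed the threshold on the lower side, beside 2.07% of the 13521 features, and none passed on the higher side, beside 2.08%. Ltbp3, described below, was lower by more at P2 but missed the threshold. The call was lost without any single library among P0, P2 and P4 (highest adjusted p = 0.167) and with edgeR (0.0618). Without P6 replicate 2 and P10 replicate 1, which are not in this comparison, the change was still -1.01. That fit altered only the pooled spread, so nothing about the call is read from it.

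At P4 Ltbp1 stood 1.59-fold above P2, with a log2 change of 0.67 (SE 0.16). This step did not pass over all genes (limma adjusted p = 0.9999, limma unadjusted p = 0.00285). At this step 2.11% of the 13521 features had an unadjusted p under 0.05. Without P6 replicate 2 and P10 replicate 1 the change was the same, because those libraries are not in it. At P4 and P6 Ltbp1 was at 79.0% and 71.8% of its P0 level, with log2 changes of -0.34 (SE 0.16, limma adjusted p = 0.247) and -0.48 (SE 0.16, limma adjusted p = 0.0680). The change at P6 passed when either P10 library was left out. Those fits altered only the pooled spread, and more of all features passed in them as well. At P10 Ltbp1 was at 60.7% (log2 change -0.72, SE 0.16).

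Ltbp2 rose at P4 and P6. Ltbp2, which binds fibrillin-1 but, unlike the other LTBPs, does not bind latent TGF-beta, had 138 and 144 normalised reads in the P0 duplicates, 174 and 227 in P2, 395 and 394 in P4, 300 and 311 in P6 and 164 and 290 in P10. Both P4 values lay above those of the 4 other passages, and the P10 duplicates differed by more than those of any other passage.

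The Ltbp2 mean was 394 ± 0.609 at P4, against 141 ± 4.31 at P0 (SD, n = 2 each), a 2.80-fold rise (log2 change 1.48, SE 0.27, limma adjusted p = 0.0132). At P4 it alone of the 8 genes passed the threshold on the higher side, beside 3.72% of all features, and none passed on the lower side, beside 5.52%, although Ltbp3 came close to it. At P6 the mean was 305 ± 8.11, 2.17-fold above P0 (log2 change 1.11, SE 0.27, limma adjusted p = 0.0240). The P4 call was lost when any single library of P0 or P4 was left out (highest adjusted p = 0.122), and the P6 call without any single library among P0, P4 and P6 (highest 0.138). With edgeR the adjusted p were 0.107 and 0.0514.

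Ltbp2 is also listed among the targets of TGF-beta in the pathway lists used below. At P2 it was 1.42-fold above P0 (log2 change 0.50, SE 0.27, limma adjusted p = 0.392). At P4 against P2 the log2 change was 0.99 (SE 0.27, unadjusted p = 0.00576, limma adjusted p = 0.9999). The leukocyte marker sum, like Ltbp2, was higher at P4 than at P0 and P2. Unlike for Ltbp2, the higher P10 value of this sum (153) lay above its lower P6 value (142). The part of this sum in the Ltbp2 values was not tested.

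Ltbp3, which is required for normal bone and tooth growth and binds latent TGF-beta, fell at P6. It had 91.5 and 58.9 normalised reads in the P0 duplicates, 25.0 and 24.6 in P2, 29.7 and 26.8 in P4, 19.6 and 33.7 in P6 and 16.0 and 19.5 in P10. All 8 values from P2 on lay below both P0 values, and the P6 values overlapped with those of P2 and of P4. The P0 duplicates differed 1.55-fold and the P6 duplicates 1.72-fold.

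At P6 the mean of Ltbp3 was 26.6 ± 10.0, against 75.2 ± 23.0 at P0 (SD, n = 2 each), or 35.4% of it (log2 change -1.48, SE 0.37, limma adjusted p = 0.0252). With Ltbp2 higher and Ltbp3 lower, 1 of 8 genes rose and 1 of 8 fell at P6, where 10.5% of all features rose and 10.5% fell, so the set's share was close to that of all features. The changes at P2 and P4 were of similar size, -1.53 (SE 0.37) and -1.35 (SE 0.37), and just missed the threshold (limma adjusted p = 0.0555 and 0.0531). Both passed when either P6 or either P10 library was left out, but those fits altered only the pooled spread and neither change. More of all features passed in them as well. The P6 call was lost without any single library among P0, P2 and P4, and also without P6 replicate 1 (highest adjusted p = 0.177), and with edgeR (0.0566). At P10 Ltbp3 was at 23.6% of its P0 level (log2 change -1.99, SE 0.37).

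In RefSeq genes of assembly CriGri-PICRH-1.0, Ltbp1, Ltbp2, Ltbp3 and Tgfb2 overlap other loci. The authors' handling of strand in counting is not given in the sources used here, so reads of these genes and of the loci they overlap may not be told apart, and their counts are uncertain. Fbn1, Fbn2, Ltbp4 and Tgfb1 overlap no other gene there, and Adamtsl2, which was not matched by name, could not be checked.

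Ltbp4, an LTBP of elastic tissue that binds latent TGF-beta 1, showed no change that passed. It had 63.6 and 69.0 normalised reads in the P0 duplicates, 61.4 and 108 in P2, 118 and 104 in P4, 47.0 and 42.7 in P6 and 35.4 and 145 in P10. The lowest and the highest of the 10 values were the P10 duplicates. The P6 and P4 libraries did not overlap, with a mean of 44.8 ± 3.01 at P6, against 111 ± 9.91 at P4 (SD, n = 2 each), but the step did not pass (log2 change -1.28, SE 0.56, limma adjusted p = 0.195). The log2 changes from P0 were 0.30, 0.73 and -0.55 (SE 0.56 each) at P2, P4 and P6, with limma adjusted p of 0.858, 0.484 and 0.482.

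Tgfb1, the most widely expressed TGF-beta ligand, shared with Ltbp4 its lowest mean at P6 and P10 duplicates that lay far apart. At P2 and P4 against P0 the 2 genes were less alike, with log2 changes of 0.30 and 0.73 for Ltbp4. Tgfb1 had 193 and 174 normalised reads in the P0 duplicates, 144 and 154 in P2, 195 and 186 in P4, 115 and 59.5 in P6 and 77.6 and 233 in P10. Its 2 P6 values lay below all values of P0, P2 and P4, and its P10 duplicates were again the most different. At P6 it averaged 87.3 ± 39.2, against 183 ± 13.2 at P0 (SD, n = 2 each), or 47.6% of it, and did not pass (log2 change -1.13, SE 0.48, limma adjusted p = 0.118). Tgfb1 at P6 passed when either P10 library was left out, but the change was the same and only the pooled spread differed. More of all features passed in those fits as well. At P2 and P4 the log2 changes from P0 were -0.30 and 0.06 (SE 0.48 each, limma adjusted p = 0.830 and 0.961).

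Ltbp4 and Tgfb1 had the highest correlation of any pair in the set over the 10 libraries (r = 0.83 of 36 pairs, given as a description). Without P6 replicate 2 and P10 replicate 1, the log2 changes of Ltbp4 and Tgfb1 were -1.22 and -0.72 at P6 against P4. They were 1.61 and 1.01 at P10 against P6. In that fit P6 and P10 have 1 library each and are assumed to vary like the other passages. With all 10 libraries the changes at P10 against P6 were 0.67 for Ltbp4 and 0.70 for Tgfb1 and did not pass (limma adjusted p = 0.639 and 0.588). Without P10 replicate 2 they were -0.33 and -0.09, so their direction rests on which P10 library is kept.

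Tgfb2, a ligand with essential roles in heart and palate development, was low and variable. It had 29.6 and 23.0 normalised reads in the P0 duplicates, 22.9 and 10.1 in P2, 10.9 and 11.7 in P4, 9.39 and 41.6 in P6 and 25.3 and 9.36 in P10. The P4 duplicates agreed closely and lay below both P0 values, while the P6 values overlapped with those of P0. The log2 change was -1.14 (SE 0.72) at P4 against P0 and did not pass (limma adjusted p = 0.379), nor did -0.74 at P2 or -0.37 at P6 (SE 0.72 each, limma adjusted p = 0.677 and 0.725).

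The balance between the ligands was not the same in duplicates. The ratio of Tgfb1 to Tgfb2 reads was 6.50 and 7.56 in the P0 duplicates, 6.27 and 15.3 in P2, 17.9 and 16.0 in P4, 12.2 and 1.43 in P6 and 3.07 and 24.9 in P10. Both P4 ratios lay above both P0 ratios, and the lowest ratios of all were in P6 replicate 2 and P10 replicate 1. The ratio is not scaled for transcript length and is compared only between libraries.

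**Figure D4:**
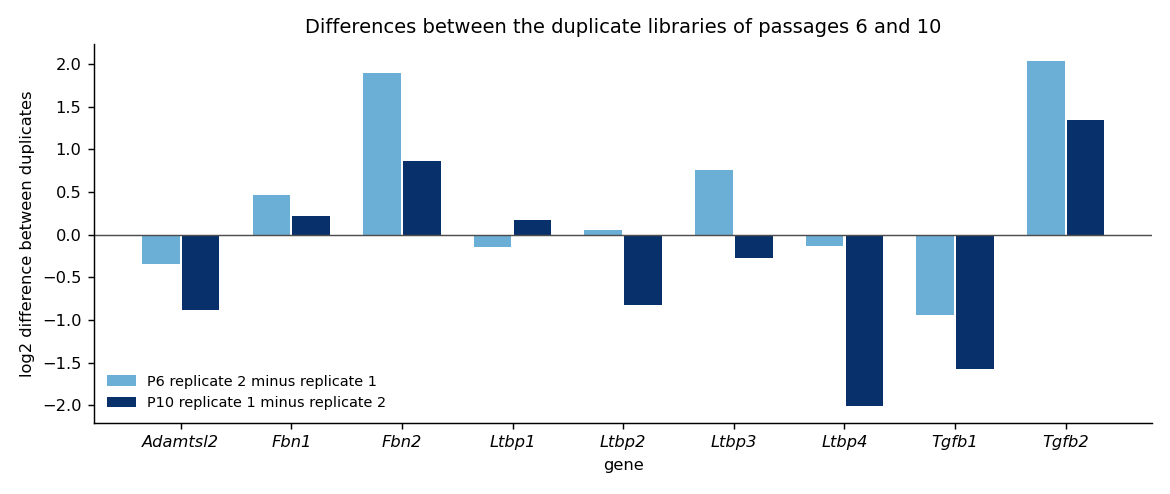
Log2 difference between duplicates (y axis, log2 of normalised reads plus 1) for the 9 genes (x axis), as P6 replicate 2 minus replicate 1 and P10 replicate 1 minus replicate 2. Fbn2 (1.89 and 0.86) and Tgfb2 (2.03 and 1.34) are higher, and Tgfb1 (-0.94 and -1.58) lower, in the library with the small Dym share at both passages, and Ltbp4 is at 0.244 of its duplicate at P10 and at 0.909 at P6.

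The P6 and P10 duplicates differed in the same way for part of the set. Across genes, the deviations of same-numbered libraries had a correlation of -0.67 between P6 and P10, so this was not particular to the set. Compared with their own duplicates, P6 replicate 2 and P10 replicate 1 held more Fbn2 (3.98-fold and 1.87-fold) and more Tgfb2 (4.43-fold and 2.70-fold). They held less Tgfb1, at 0.518 and 0.333 of the duplicate, and less Adamtsl2, at 0.785 and 0.541. Ltbp1 stayed within 0.905 and 1.13 of its duplicate. These are the 2 libraries with Dym at 1.15 and 1.41% of reads, and the part of whatever sets them apart in these values was not tested.

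In the steps between neighbouring passages no gene of the set passed, and neither did any other feature. With limma, 0% of the 13521 features passed at P4 against P2, 0% at P6 against P4 and 0% at P10 against P6, and edgeR likewise called 0 in each. At an unadjusted p under 0.05 there were 285, 3450 and 1273 features. Among the 8 genes these were Ltbp1 and Ltbp2 at P4 against P2, Fbn1, Ltbp4 and Tgfb1 at P6 against P4, and Fbn1 at P10 against P6. Without P10 replicate 1 or P10 replicate 2 the log2 changes of Ltbp4 and Tgfb1 at P6 against P4 stayed at -1.28 and -1.19. Both passed there, but only the pooled spread had changed, and many of all features passed as well. At P10 against P6 their log2 changes were 1.67 and 1.48 without P10 replicate 1, and -0.33 and -0.09 without P10 replicate 2.

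At P10 against P0, the comparison from which the set was proposed, Fbn1, Ltbp1 and Ltbp3 were past the threshold on the lower side, 3 of 8, beside 8.25% of all features, and none was past it on the higher side, beside 8.77%. Nothing is read from this count. The P10 values of Ltbp2 were 1.61-fold above P0 (log2 change 0.63, SE 0.27), and those of Ltbp4, Tgfb1, Tgfb2 and Fbn2 overlapped with P0, with log2 changes of 0.12, -0.44, -0.71 and -0.04. The median log2 change of the 8 genes was -0.50 at P2, -0.15 at P4, -0.47 at P6 and -0.58 at P10, where the median over all features was 0.01, 0.03, -0.07 and 0.00. The comparisons with P0 share its 2 libraries.

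Around the set stand the genes that build microfibrils, release TGF-beta and carry its signal. The 177 entries of 7 such lists, chosen with earlier results known, gave 158 matches and 110 tested genes. Of 13 tested receptors and co-receptors, 1 rose and 3 fell at P6, beside the 10.5% and 10.5% of all features, with a median log2 change of -0.61 where all features had -0.07. Tgfbr2, the receptor that binds ligand first, averaged 862 at P6 and 1547 at P0 (log2 change -0.86, SE 0.21, limma adjusted p = 0.0258). Tgfbr3, or betaglycan, a co-receptor that presents TGF-beta 2, averaged 1615 at P6 and 2504 at P0 (log2 change -0.64, SE 0.16, limma adjusted p = 0.0269). Tgfbr1, the signalling kinase, was the one that rose, to 643 at P6, against 393 at P0 (log2 change 0.70, SE 0.20, limma adjusted p = 0.0414).

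All 3 receptor calls at P6 were lost without any single library among P0, P2 and P4, and also without P6 replicate 1, and that of Tgfbr1 also without P6 replicate 2 (highest adjusted p = 0.179, 0.173 and 0.186 for Tgfbr2, Tgfbr3 and Tgfbr1). At P10 against P0, Tgfbr2 and Tgfbr3 fell by 0.998 and 1.11 on the log2 scale, calls lost for Tgfbr2 when either P0 library was left out (highest adjusted p = 0.146) and for Tgfbr3 without P0 replicate 1 (0.0562). Acvr1, a receptor of BMPs and activins, fell at P2 (-1.03), P4 (-1.41), P6 (-1.28) and P10 (-1.57). Its P2 call was lost without any single library among P0, P2 and P4 (highest adjusted p = 0.352), its P4 call without any single library among P0 and P4 (0.105), and its P6 and P10 calls without P0 replicate 1 (0.0863 and 0.0594).

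Of 20 genes around the release of latent TGF-beta, 2 rose and 3 fell at P6, beside 10.5% and 10.5% of all features. Thbs1, thrombospondin 1, which can activate latent TGF-beta, had 915 and 1132 normalised reads at P6, against 12125 and 10022 at P0 (log2 change -3.44, SE 0.19, limma adjusted p = 5.45e-05), and passed in all 10 leave-one-out fits. Tgm2, a transglutaminase that crosslinks LTBPs into the matrix, rose at P6 with 17392 and 10175 normalised reads, against 4052 and 3926 at P0 (log2 change 1.74, SE 0.30, limma adjusted p = 0.00715), a call lost when either P0 library was left out (highest 0.0662). Of 19 Smads and regulators, 1 rose and 5 fell at P6, beside the same 10.5% and 10.5%. Ski, a repressor of Smad signalling, fell by 1.16 on the log2 scale (SE 0.16, limma adjusted p = 0.00288), and passed in all 10 leave-one-out fits.

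**Figure D5:**
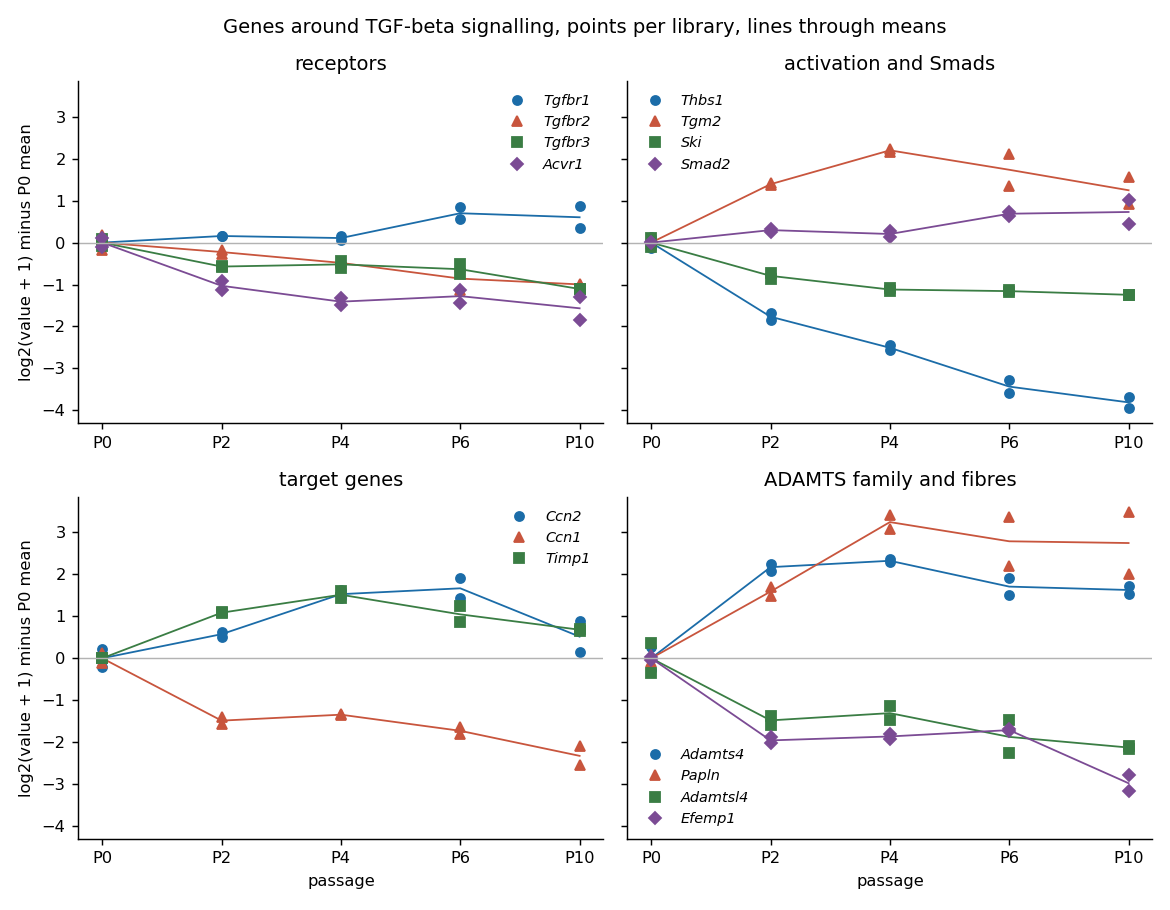
Log2 of normalised reads plus 1, minus the P0 mean (y axis, shared), at each passage (x axis, evenly spaced) for 15 genes around TGF-beta signalling, with a point per library and lines through the means. Thbs1 falls furthest (-3.81 at P10), Tgfbr2 and Tgfbr3 lie below and Tgfbr1 above their P0 means at P6 and P10, and Ccn2 climbs to P6 while Ccn1 falls.

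The TGF-beta target genes did not move as one. Of 21 tested, 4 rose and 1 fell at P2, beside 2.08% and 2.07% of all features, and 7 rose and 3 fell at P4, beside 3.72% and 5.52%. At P6 6 rose and 4 fell, beside 10.5% and 10.5%, and at P10 4 rose and 3 fell, beside 8.77% and 8.25%. Ltbp2, described above, is one of those that rose at P4 and P6. Ccn2, connective tissue growth factor, had 322 and 230 normalised reads at P6, against 98.4 and 73.3 at P0 (log2 change 1.67, SE 0.30, limma adjusted p = 0.00795), a call lost without P0 replicate 2 (0.0675).

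Timp1, an inhibitor of matrix proteases, rose at P4 by 1.52 (SE 0.17, limma adjusted p = 0.00215), and Col3a1, a fibrillar collagen chain, by 1.87 (SE 0.29, limma adjusted p = 0.00659), the second call being lost without any single library among P0 and P4 (highest 0.0827). At P10 the log2 changes from P0 were 0.68 for Timp1 and 0.32 for Col3a1 (limma adjusted p = 0.0310 and 0.482). Ccn2 had 93.7 and 158 normalised reads at P10 (log2 change 0.52, SE 0.30, limma adjusted p = 0.274). Ccn1, a matricellular protein that also answers to YAP, fell at P6 by 1.73 on the log2 scale (SE 0.20, limma adjusted p = 0.00159). Tgfbi, a matrix protein named for its induction by TGF-beta, had a mean of 1.17 normalised reads and was not tested.

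Within the ADAMTS and ADAMTS-like family, 3 of 16 rose and 3 fell at P6, beside 10.5% and 10.5% of all features. Adamts4, an aggrecanase, rose by 1.71 (SE 0.25, limma adjusted p = 0.00343) and Papln, or papilin, a relative of the ADAMTS-like proteins, by 2.79 (SE 0.49, limma adjusted p = 0.00729). Adamtsl4, an ADAMTS-like protein that binds fibrillin-1, fell by 1.88 on the log2 scale (SE 0.35, limma adjusted p = 0.00897). Papln missed the threshold when either P0 library was left out (highest 0.0605) and Adamtsl4 without P0 replicate 1 (0.0898). Of 11 tested microfibril and elastic fibre partners, none rose and 2 fell at P6, Efemp1 and Fn1, beside the same shares of all features. Efemp1, or fibulin 3, fell by 1.71 (SE 0.17, limma adjusted p = 8.46e-04) and Fn1, fibronectin, to which LTBPs also attach, by 1.29 on the log2 scale (SE 0.21, limma adjusted p = 0.00506), the second call being lost without P0 replicate 1 (0.0573). Of 10 tested BMPs, GDFs, activins and their antagonists, 3 rose and none fell at P6, again beside these shares. Among them Bmp5 rose by 1.31 (SE 0.29, limma adjusted p = 0.0166), a call lost when either P0 library or P6 replicate 2 was left out.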

How the data were processed

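The table holds signal values deposited by the authors, which are read counts scaled with DESeq according to the submitters' processing notes. Per the labels' protocols, Trizol RNA was depleted of ribosomal RNA and made into stranded libraries. The aligner, counter, build and annotation were not given in the sources available. In every column 100% of values were whole multiples, within 0.01 reads, of 1 step, so that whole reads could be recovered. For P4 replicate 1 the step lies close to 1, recovered reads could not be told from rounding, and edgeR 4.0.16 (TMM, quasi-likelihood) ran on the other 9 libraries, which leaves P4 with 1 library, assumed to vary like the rest.

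The main test was limma 3.58.1 (R 4.3.3) on log2(value + 1), with a trended prior, for features with a mean of at least 10, in 1 fit of 10 libraries with a mean per passage. The spread is pooled, although P6 and P10 duplicates lie further apart. P-values are two-sided, Benjamini-Hochberg adjusted over 13521 features per comparison, at 0.05. Fold changes on this scale understate changes of low genes. Of 20050 features named by number, 16386 matched a RefSeq symbol. The limma and edgeR fits were also run on simulated counts with the same spread in all libraries. That check does not cover the wider spread of the P6 and P10 duplicates.

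Members and lists were chosen with earlier results of these data known. Named are the 9 members, the 5 genes most like Adamtsl2, some of the up to 4 called genes with the smallest p per list and comparison, and Ccn2, Tgfbi and 3 TGF-beta receptors. Dym lies outside this rule. Some genes that the rule names are not reported here.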

Additional observations from a re-analysis of the deposited data

How the results depend on the processing

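Directions of the members' passing changes at P2, P4 and P6 held in every alternative, but which genes passed did not. Of the 8 tested members, 1 passed at P2 against P0, 1 at P4 and 2 at P6, and none in the 3 steps. With a pseudocount of 5 the count was 2 at P2 and 2 at P4. With the spread taken from the compared passages alone it was 2 at P2, 5 at P4, 1 at P6 and 2 at P4 against P2. With edgeR on 9 libraries it was 0 at P2, 0 at P4 and 0 at P6. Without P6 replicate 2 and P10 replicate 1 it was 3 at P2, 5 at P4, 7 at P6, 2 at P4 against P2, 3 at P6 against P4 and 3 at P10 against P6. Leaving out 1 library at a time gave 0 to 2 at P2, 0 to 2 at P4, 0 to 4 at P6, 0 at P4 against P2, 0 to 2 at P6 against P4 and 0 to 2 at P10 against P6. Without P0 replicate 1 the count was 0 at P6. The cause of these differences was not tested. The number of all features that passed moved with the setting as well, as given below. With the compared passages alone, 5677 of the 13521 features passed at P4, where 5 members did. Nothing about the set is therefore read from these member counts. For P10 against P0, which the choice of the set used, the number of members past the same limit is a description and no test. It was 3 with all libraries, 0 with the compared passages alone, 6 without P6 replicate 2 and P10 replicate 1, and 0 to 4 without 1 library, with 0 without P0 replicate 1. Neither the removal of the filter nor median centring moved these counts.

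Of all features, 561, 1250, 2841 and 2301 passed at P2, P4, P6 and P10 against P0. The range without 1 library was 61 to 1578, 143 to 2783, 412 to 5441 and 315 to 4738. With the compared passages alone the counts were 3940, 5677, 2620 and 49, with edgeR 204, 120, 1456 and 1294, and without the 2 libraries 4616, 5829, 6595 and 6256. For the steps, the compared passages alone gave 569, 4 and 0, and without the 2 libraries 220, 3712 and 3610.

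The labels number the duplicates 1 and 2, but same-numbered libraries did not deviate together: 1 of 10 pairs of passages had a correlation of deviations above 0.1, from -0.67 to 0.23, and in 3 of 5 passages libraries correlated best with their own number. With a replicate block the counts of members did not change, and all features came to 261, 767, 2024 and 1686. Tgfb1 at P10 against P0 was 0.35 without the 2 libraries and -0.44 with them, neither a call. For Fbn2 and Tgfb2, at about 10 to 40 normalised reads, counting error and the duplicates' spread limit what can be seen.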

Other observations

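Ltbp4 and Tgfb1, the pair with the highest correlation in the set, are near neighbours in RefSeq genes of assembly CriGri-PICRH-1.0. This was looked at after their values were seen. Between them 30 genes are listed. The 10 of these genes that were tested had a median log2 difference of -0.36 between P10 replicate 1 and P10 replicate 2, and 7 of them were lower in replicate 1. The 251 tested genes of their chromosome had a median of -0.43, with 67.7% lower in replicate 1. All 13521 features had a median of -0.01, with 50.3% lower. The share among the 10 genes was thus close to that of the chromosome.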
